A study of Mus musculus with 2 samples.

Results

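Glycolysis and the hypoxia response were examined through 42 genes in mouse E14.1 embryonic stem cells, a line grown from the early embryo. They were chosen by symbol, as genes of glucose uptake, glycolysis, lactate export and the hypoxia-inducible factor (HIF) pathway and its targets, and all 42 were found among the 25749 genes of the deposited values. The T136A library came from E14.1 cells carrying T136A AHCY, which in the usual notation is threonine replaced by alanine. The WT library came from E14.1 cells carrying WT AHCY. AHCY is the enzyme that clears S-adenosylhomocysteine, which methylation reactions leave behind. There was 1 library per genotype, so the differences below have no replicate check and no test over samples was possible. Each describes this pair of libraries. The labels do not say how the T136A cells were made or whether they are 1 clone.

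In glycolysis, glucose is taken up by transporters, phosphorylated, split and oxidised to pyruvate, with a net gain of ATP. Lactate dehydrogenase then reduces pyruvate to lactate, which leaves the cell through monocarboxylate transporters, or pyruvate enters mitochondria through pyruvate dehydrogenase. When oxygen is scarce, the HIF alpha subunits escape prolyl hydroxylation and VHL-dependent breakdown, pair with ARNT and raise transcription of many of these genes. Embryonic stem cells are known for running glycolysis strongly even with oxygen present.

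The values are RPKM, reads per kilobase of exon scaled to sequencing depth, which allows levels to be compared between genes. The totals that the authors divided by came out as 18396840 reads for T136A and 17506154 for WT. Log2 ratios below had 1 RPKM added to both values before T136A was divided by WT, and plain folds are RPKM ratios without the added 1. Intervals given with folds are 95% exact (Clopper-Pearson) intervals from recovered reads; they cover counting error only and compare the libraries, not the genotypes. Ahcy was at 56.6 RPKM in T136A and 52.9 RPKM in WT, which checks no label because an amino acid change need not alter the transcript level. All 8 embryonic stem cell markers were well expressed, between 98.0 and 1969 RPKM in T136A and between 106 and 2182 RPKM in WT. Their log2 ratios were above 0 for 2 and below 0 for 6, with a median of -0.18. The 2 above 0, Zfp42 and Tdgf1, were at least 1.5-fold higher (25%, against 10.4% of all genes), and 0 were at least 1.5-fold lower. Of the 8 feeder fibroblast markers found, 4 reached 1 RPKM and 3 of these were at least 1.5-fold higher: S100a6 (28.0 RPKM in T136A and 13.3 RPKM in WT, 2.11-fold), Thy1 (5.32 RPKM in T136A and 2.499 RPKM in WT, 2.13-fold) and Vim (19.9 RPKM in T136A and 10.9 RPKM in WT, 1.82-fold). Ccn2 was lower, at 1.27 RPKM in T136A and 3.03 RPKM in WT. The 8 summed to 55.2 RPKM in T136A and 30.3 RPKM in WT. The defining collagen gene Col1a1 was at 0.530 RPKM in T136A and 0.470 RPKM in WT, Postn at 0.00625 RPKM in T136A and 0 in WT, and Acta2 at 0.0916 RPKM in T136A and 0 in WT. Of 5 measured markers of differentiated derivatives, 4 had a log2 ratio above 0, with a median of 0.42, among them Sox17, at 1.38 RPKM in T136A and 0.551 RPKM in WT. Sox1 was the exception, at 1.55 RPKM in T136A and 7.77 RPKM in WT, and through it the sum of all 8 markers was 8.42 RPKM in T136A and 11.5 RPKM in WT. Sox17 and Gata6 (1.68 RPKM in T136A and 0.805 RPKM in WT) passed the minimum through T136A alone. Over all 8 markers, whatever their level, the median log2 ratio was 0.25, with 6 above 0 and 1 below. Pax6 was at 0 in both, and the 3 erythroid markers found stayed at or under 0.355 RPKM. The part of such cells in the differences below was not tested. In bulk RNA, fewer cells of a type and less RNA per cell cannot be told apart.

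Of the 42 genes, 39 reached 1 RPKM in at least 1 library; Pfkfb4, Car9 and Gbe1 did not. Among those 39, 10 were at least 1.5-fold higher in T136A, or 25.6%, against a background of 10.4% of all 12320 genes at or above 1 RPKM. At least 1.5-fold lower were 5, or 12.8%, against a background of 11.3%, a share near that of all genes. Past 2-fold were 2 genes on the higher side, where the background was 3.13%, and 1 on the lower side, where it was 3.1%. Of the 10 higher genes, 8 were at or above 1 RPKM in WT too, while Ankrd37 and Ndrg1 passed the minimum through T136A alone. Over all 42 genes, whatever their level, 30 had a log2 ratio above 0 and 12 below, with a median of 0.25. The median over the 12320 genes was -0.03.

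Because glycolytic genes are abundant, those at or above 100 RPKM were also read against the 698 genes at that level. Of 12 such members, 2 were at least 1.5-fold higher, against a background of 12.6%, and 1 was lower, against 9.17%. The 2 higher were Ldha and Slc2a1, and Slc2a1 passed 100 RPKM through T136A alone (159 RPKM in T136A and 99.7 RPKM in WT). Past 2-fold there were Ldha on the higher side (background 3.3%) and Ldhb on the lower (4.3%). The median log2 ratio of the 12 was 0.21, with 9 above 0, and that of the 698 genes was 0.00.

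**Figure D1:**
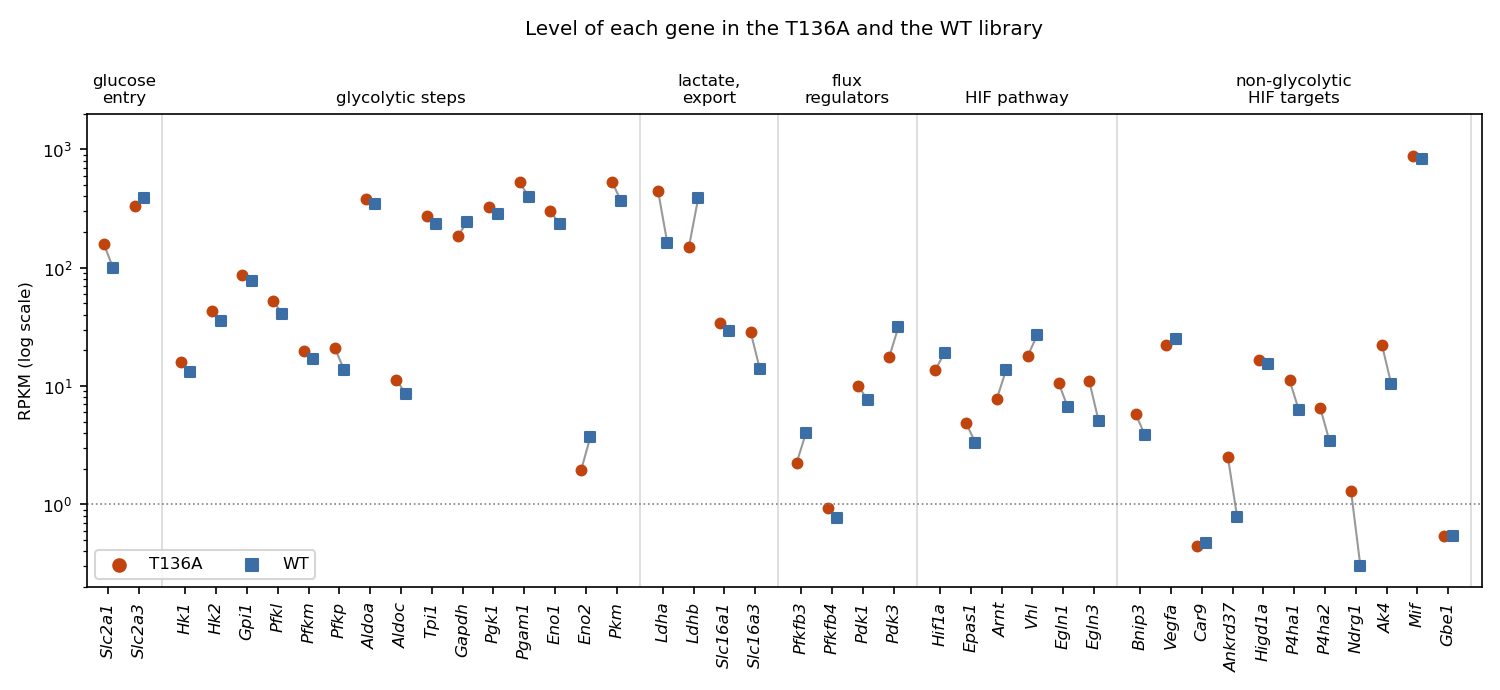
RPKM of each of the 42 genes (log axis) in the T136A library (circles, left of each pair) and the WT library (squares, right), grouped by role; the dotted line marks 1 RPKM. The enzymes of the glycolytic steps lie high in both libraries, and Ldha and Ldhb change places, at 441 and 150 RPKM in T136A against 161 and 386 RPKM in WT.

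Glucose entry was represented by 2 transporter genes whose ratios lay on opposite sides of 1. Slc2a1, which encodes the widespread transporter GLUT1, stood at 159 RPKM in T136A and 99.7 RPKM in WT, 1.59-fold higher (interval 1.54 to 1.64). Slc2a3, encoding the high-affinity transporter GLUT3, stood at 335 RPKM in T136A and 386 RPKM in WT, a ratio of 0.868 (0.857 to 0.879). The sum of both was nearly level, at 493 RPKM in T136A and 485 RPKM in WT. Slc2a1 thus made up 32.1% of the summed RPKM of the pair in T136A (interval 31.7 to 32.6) and 20.5% in WT (20.1 to 20.98).

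Along the steps that turn glucose into pyruvate, most enzymes were modestly higher in T136A. Of 15 genes, 13 had a higher RPKM in T136A, by 1.11 to 1.53-fold, and 14 lay within 1.5-fold on the log2 scale. Hexokinases trap glucose as glucose-6-phosphate: Hk2 was at 42.7 RPKM in T136A and 35.2 RPKM in WT, and Hk1 at 16.04 RPKM in T136A and 13.2 RPKM in WT. Their folds were alike, 1.21-fold for each gene, so that Hk2 held 72.7% of the sum of Hk1 and Hk2 in both libraries. Gpi1, the isomerase that forms fructose-6-phosphate, was at 86.1 RPKM in T136A and 77.0 RPKM in WT.

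Phosphofructokinase, the committed and most regulated step, is built from 3 isozymes, and all were higher in T136A. The platelet form Pfkp had the highest fold, 1.53 (1.47 to 1.603), at 21.05 RPKM in T136A and 13.7 RPKM in WT. The liver form Pfkl, the most abundant, was at 52.1 RPKM in T136A and 41.0 RPKM in WT. For the muscle form Pfkm the values were 19.6 RPKM in T136A and 16.96 RPKM in WT. The isozyme sum was 1.29-fold higher, at 92.7 RPKM in T136A and 71.7 RPKM in WT, and the share of Pfkp was 22.7% against 19.1%. Pfkp shares exon sequence with its neighbour Pitrm1 and Pfkm with Senp1 and Gm26513, so reads in the overlap cannot be assigned.

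The enzymes of the lower part of the pathway were mostly far more abundant. Aldolase splits the sugar, and its main form Aldoa stood at 383 RPKM in T136A and 344 RPKM in WT, while Aldoc stood at 11.3 RPKM in T136A and 8.61 RPKM in WT. Tpi1, which interconverts the triose phosphates, was at 273 RPKM in T136A and 232 RPKM in WT. Pgk1, which makes the first ATP, was at 323 RPKM in T136A and 285 RPKM in WT. The folds of Aldoa, Tpi1 and Pgk1 ran from 1.11 to 1.17, and that of Aldoc was 1.31.

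The last steps showed more of a difference. Pgam1, the phosphoglycerate mutase, was 1.34-fold higher, at 528 RPKM in T136A and 394 RPKM in WT. Eno1, the general enolase, was 1.28-fold higher (1.26 to 1.31), at 299 RPKM in T136A and 233 RPKM in WT. Pkm, the pyruvate kinase that closes the pathway, was 1.46-fold higher (1.44 to 1.48), at 532 RPKM in T136A and 364 RPKM in WT. Gene-level values do not separate the M1 and M2 splice forms of Pkm.

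Gapdh and Eno2 were the exceptions among these 15 genes. Gapdh, which oxidises glyceraldehyde-3-phosphate and is often used as a loading control, stood at 186 RPKM in T136A and 243 RPKM in WT, a ratio of 0.766 (0.750 to 0.784). Transcripts of 100 other listed genes, such as the processed copies Gm7336 and Gm5559, share a stretch of at least 200 bases with Gapdh at 95% identity or more. Gm7336 was at 584 RPKM in T136A and 700 RPKM in WT, above Gapdh itself. With these copies added the values were 1526 RPKM in T136A and 1828 RPKM in WT, a sum that may count the same reads more than once and was also lower in T136A. Eno2, the neuronal enolase, was at 1.95 RPKM in T136A and 3.72 RPKM in WT, a log2 ratio of -0.68. Eno2 made up 0.649% of the sum of Eno1 and Eno2 in T136A and 1.57% in WT. This sum leaves out the isozyme Eno3, at 16.7 RPKM in T136A and 29.3 RPKM in WT. Eno3 was more abundant than Eno2 and 1.75-fold lower in T136A (1.57 to 1.95). Eno1 also has a near-identical copy, Eno1b, at 346 RPKM in T136A and 279 RPKM in WT, so the separate values of these genes are uncertain.

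On the log2 scale with 1 RPKM added, the lactate dehydrogenase genes had the highest and the lowest ratio of the list; in plain RPKM the weakly expressed Ndrg1 (4.24-fold) and Ankrd37 (3.22-fold) had higher folds than Ldha. Ldha encodes the muscle-type subunit, which favours the reduction of pyruvate to lactate and is a classic HIF and MYC target; Ldhb encodes the heart-type subunit, which favours lactate oxidation. Ldha stood at 441 RPKM in T136A and 161 RPKM in WT, 2.74-fold higher (2.68 to 2.81). Ldhb stood at 150 RPKM in T136A and 386 RPKM in WT, 2.57-fold lower (2.48 to 2.67). Among the 12320 genes, Ldha had the 137th highest log2 ratio (1.45) and Ldhb the 132nd lowest (-1.36). Their sum differed little, at 591 RPKM in T136A and 547 RPKM in WT. The Ldha share of this RPKM sum was 74.6% in T136A (74.0 to 75.2) and 29.4% in WT (28.8 to 30.0). The more abundant transcript of the pair was thus Ldha in T136A and Ldhb in WT. Near-identical copies added little: with them, Ldha was at 451 RPKM in T136A and 164 RPKM in WT, and Ldhb at 151 RPKM in T136A and 389 RPKM in WT.

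**Figure D2:**
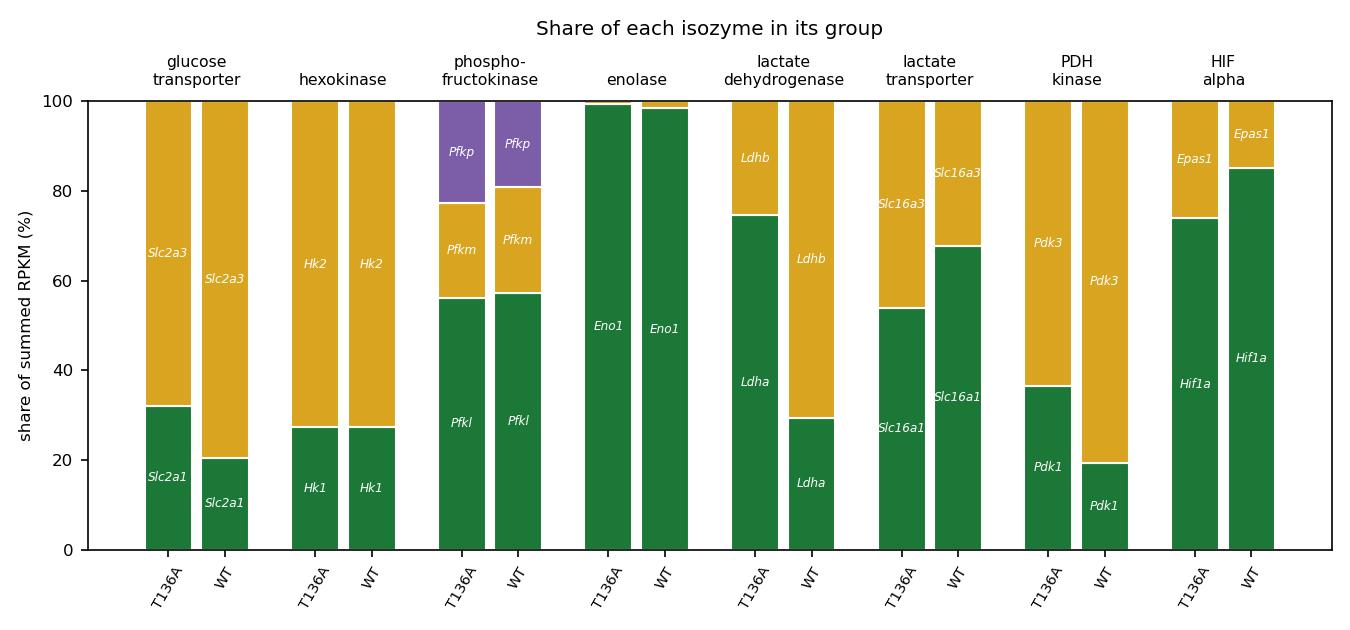
Share of each isozyme in the summed RPKM of its group (percent), with the T136A bar left of the WT bar in each pair. Ldha fills 74.6% of the lactate dehydrogenase bar in T136A and 29.4% in WT, while the hexokinase bars are alike.

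The promoter letters of Ldha and Ldhb are shown because of these opposite ratios. The windows, from RefSeq on GRCm38.p6, run from 250 bases before to 50 bases after the start site and are written 5′ to 3′ on the gene's strand. Capitals mark the core of the hypoxia response element, ACGTG or GCGTG, searched on both strands. The E-box CACGTG, to which MYC with its partner MAX binds, holds ACGTG on both strands and so overlaps this search. The upstream of 2 Ldha windows is at chr7:46845554-46845853 (plus strand), and the Ldhb window at chr6:142507908-142508207 (minus strand).
Ldha: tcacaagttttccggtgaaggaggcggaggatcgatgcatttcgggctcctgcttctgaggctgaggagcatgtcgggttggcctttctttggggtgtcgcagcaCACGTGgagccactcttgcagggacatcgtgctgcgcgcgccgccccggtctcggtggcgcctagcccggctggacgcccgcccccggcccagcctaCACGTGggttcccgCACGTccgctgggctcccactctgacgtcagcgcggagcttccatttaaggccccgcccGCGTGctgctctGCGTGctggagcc
Ldhb: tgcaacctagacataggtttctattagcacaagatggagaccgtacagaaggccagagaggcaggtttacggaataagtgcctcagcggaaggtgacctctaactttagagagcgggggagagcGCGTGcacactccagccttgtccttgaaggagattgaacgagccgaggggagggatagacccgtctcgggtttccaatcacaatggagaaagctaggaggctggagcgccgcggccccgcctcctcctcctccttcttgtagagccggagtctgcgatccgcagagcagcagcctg
The Ldha window holds 5 matches to ACGTG, of which 4 lie in its 2 E-boxes, and 2 matches to GCGTG. The Ldhb window holds 0 matches to ACGTG and 1 to GCGTG. Myc was at 17.7 RPKM in T136A and 2.27 RPKM in WT, and its part in the Ldha difference was not tested.

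Of the transporters that export lactate, Slc16a3, which encodes the HIF-responsive MCT4, was at 28.9 RPKM in T136A and 13.96 RPKM in WT. It was 2.07-fold higher (1.93 to 2.21) and, at a log2 ratio of 1.00 with the constant added, lay just under 2-fold on that scale. Slc16a1, encoding the general transporter MCT1, stood at 33.8 RPKM in T136A and 29.3 RPKM in WT, 1.15-fold higher (1.09 to 1.22). Slc16a3 thus made up 46.0% of the summed RPKM of the pair in T136A (44.7 to 47.3) and 32.3% in WT (30.8 to 33.8).

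Of the 4 regulators of flux, 3 reached 1 RPKM. Among these 3, 2 were at least 1.5-fold lower in T136A (66.7%, against 11.3% of all genes) and 0 were at least 1.5-fold higher. Pfkfb3 makes fructose-2,6-bisphosphate, the activator of phosphofructokinase, and was 1.78-fold lower (1.55 to 2.05), at 2.26 RPKM in T136A and 4.02 RPKM in WT. Its relative Pfkfb4 remained under 1 RPKM, at 0.925 RPKM in T136A and 0.762 RPKM in WT, a difference not detectable at this depth (interval of the ratio 0.868 to 1.71). Pyruvate dehydrogenase kinases keep pyruvate out of mitochondria. Pdk1, the form known as a HIF target, was 1.32-fold higher (1.22 to 1.43), at 10.04 RPKM in T136A and 7.61 RPKM in WT. Pdk3 was 1.804-fold lower (1.65 to 1.97), at 17.5 RPKM in T136A and 31.5 RPKM in WT. Because Pdk3 was the more abundant, the sum of both kinases was lower, at 27.5 RPKM in T136A and 39.1 RPKM in WT.

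The HIF pathway itself split evenly, with 3 of its 6 genes above 0 and 3 below on the log2 scale. Hif1a, the main oxygen-regulated subunit, was at 13.7 RPKM in T136A and 19.1 RPKM in WT, a ratio of 0.719 (0.672 to 0.769). Its constitutive partner Arnt was at 7.84 RPKM in T136A and 13.7 RPKM in WT, a ratio of 0.571 (0.530 to 0.614). Vhl, the recognition subunit of the ligase that destroys HIF alpha, was at 17.9 RPKM in T136A and 26.7 RPKM in WT, a ratio of 0.670 (0.617 to 0.727). The transcripts of both subunits of HIF-1 were therefore lower in T136A, as was that of the factor that removes it.

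On the higher side were the second alpha subunit and the oxygen sensors. Epas1, which encodes HIF-2 alpha, was at 4.84 RPKM in T136A and 3.32 RPKM in WT. Its share of the sum of Hif1a and Epas1 was 26.1% in T136A and 14.8% in WT. Egln1, the main prolyl hydroxylase that marks HIF alpha for breakdown, was 1.61-fold higher (1.43 to 1.83), at 10.7 RPKM in T136A and 6.61 RPKM in WT. Egln3, a hydroxylase that HIF itself induces, was 2.15-fold higher (1.84 to 2.51), at 10.9 RPKM in T136A and 5.09 RPKM in WT. HIF is controlled mainly through protein stability, on which RNA levels are silent.

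**Figure D3:**
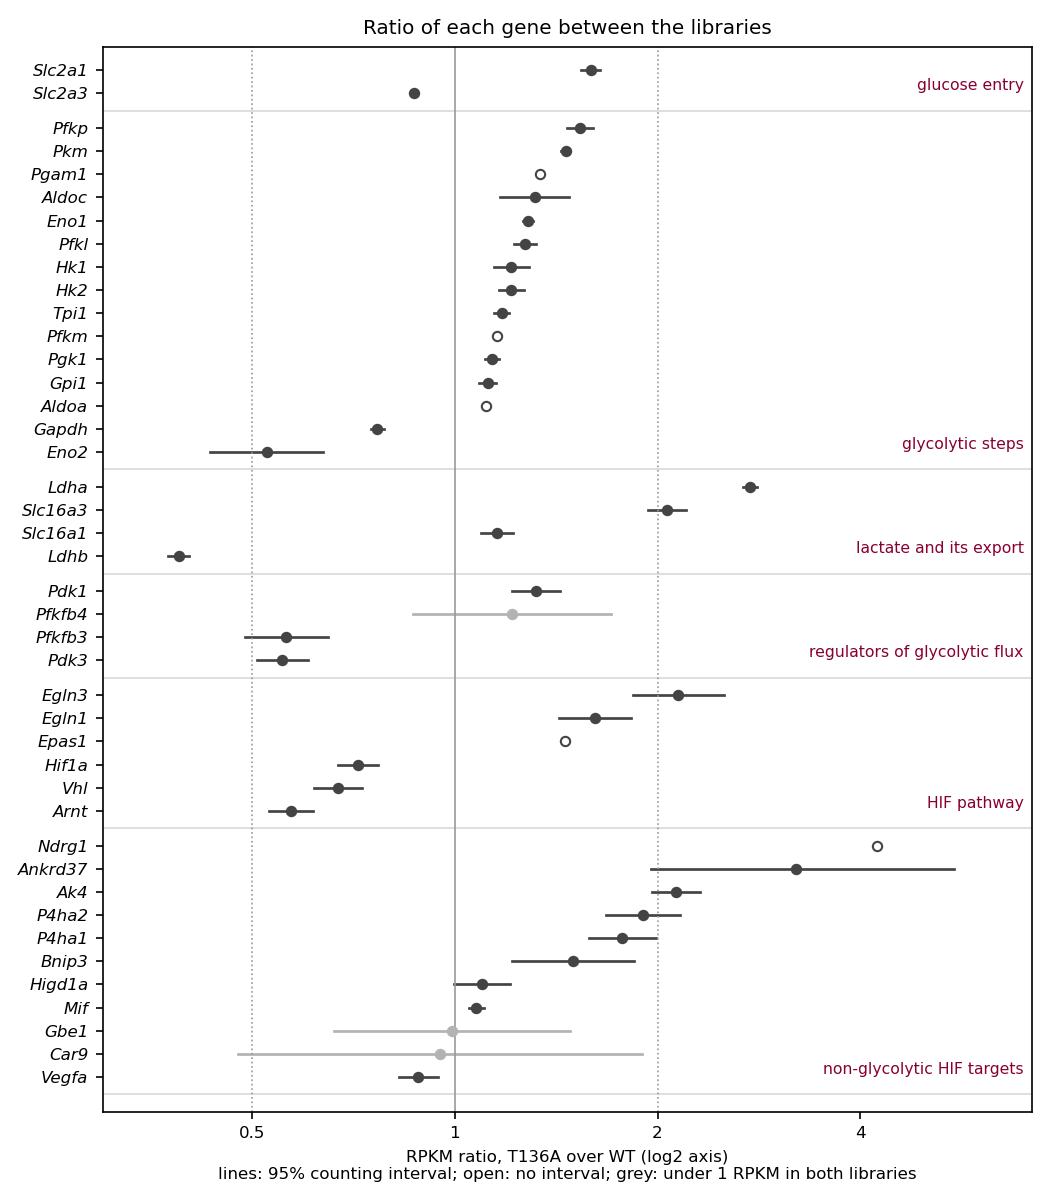
Plain RPKM ratio of T136A over WT for each gene (log2 axis) by role, with 95% counting intervals as lines; open circles had no recovered reads and grey ones were under 1 RPKM in both libraries. Ldha at 2.74 and Ldhb at 0.389 lie far apart, and within the HIF pathway Egln3 and Arnt lie on opposite sides of 1.

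Of the 11 HIF targets outside glycolysis, 5 were at least 1.5-fold higher on the log2 scale and 0 were at least 1.5-fold lower, where the shares of all genes were 10.4% and 11.3%. Of these 5, Ankrd37 and Ndrg1 passed the minimum of 1 RPKM through T136A alone. Ak4, a mitochondrial adenylate kinase, was 2.13-fold higher (1.96 to 2.31), at 22.3 RPKM in T136A and 10.5 RPKM in WT. Both collagen prolyl hydroxylase subunits were higher: P4ha1 was at 11.2 RPKM in T136A and 6.30 RPKM in WT, and P4ha2 at 6.50 RPKM in T136A and 3.42 RPKM in WT. Their folds were 1.77 (1.58 to 1.99) and 1.90 (1.68 to 2.16). Ankrd37, an ankyrin repeat protein, was 3.22-fold higher (1.95 to 5.51), resting on 71 reads in T136A and 21 in WT. Part of its exons overlaps Lrp2bp and Ufsp2. Ndrg1, a stress-responsive gene, was at 1.29 RPKM in T136A and 0.303 RPKM in WT, without recovered reads and hence without an interval.

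The remaining targets were nearer to level. Bnip3, a mitophagy receptor, was 1.495-fold higher (1.22 to 1.84) in plain RPKM, at 5.81 RPKM in T136A and 3.88 RPKM in WT, with a log2 ratio of 0.48. Higd1a, a small mitochondrial protein, stood at 16.7 RPKM in T136A and 15.2 RPKM in WT, with an interval of the ratio that included 1 (0.997 to 1.21). Mif, a cytokine, was at 882 RPKM in T136A and 820 RPKM in WT. Vegfa, the angiogenic growth factor, was slightly lower, at 22.2 RPKM in T136A and 25.1 RPKM in WT, a ratio of 0.883 (0.827 to 0.943). Car9, the carbonic anhydrase often used as a hypoxia marker, was at 0.448 RPKM in T136A and 0.471 RPKM in WT, 19 reads in each. Gbe1, which branches glycogen, was at 0.538 RPKM in T136A and 0.544 RPKM in WT. For Car9 and Gbe1 no difference was detectable at this depth, with intervals of the ratio from 0.477 to 1.90 and from 0.660 to 1.48.

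Set side by side, the glycolytic steps had the lower median ratio, by an amount that depended on the constant added. The 17 glycolytic step genes, Ldha and Ldhb included, had a median log2 ratio of 0.26, with 14 above 0 (82.4%, against 47.4% of the 12320 genes). At least 1.5-fold higher was 1 of the 17, Ldha (5.88%, against 10.4% of the 12320 genes). At least 1.5-fold lower were 2, Ldhb and Eno2 (11.8%, near the 11.3% of the 12320 genes). The 11 other HIF targets had a median of 0.48, with 8 above 0. The median difference, glycolytic steps minus other targets, was -0.22 over all genes and -0.48 when Car9 and Gbe1 were left out as under 1 RPKM. It was -0.06 with 5 RPKM added in place of 1, which shrinks the ratios of weakly expressed genes. The glycolytic genes are the more abundant set, at a summed 3366 RPKM in T136A and 2852 RPKM in WT. Their part of all RPKM was 0.877% in T136A and 0.751% in WT.

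**Figure D4:**
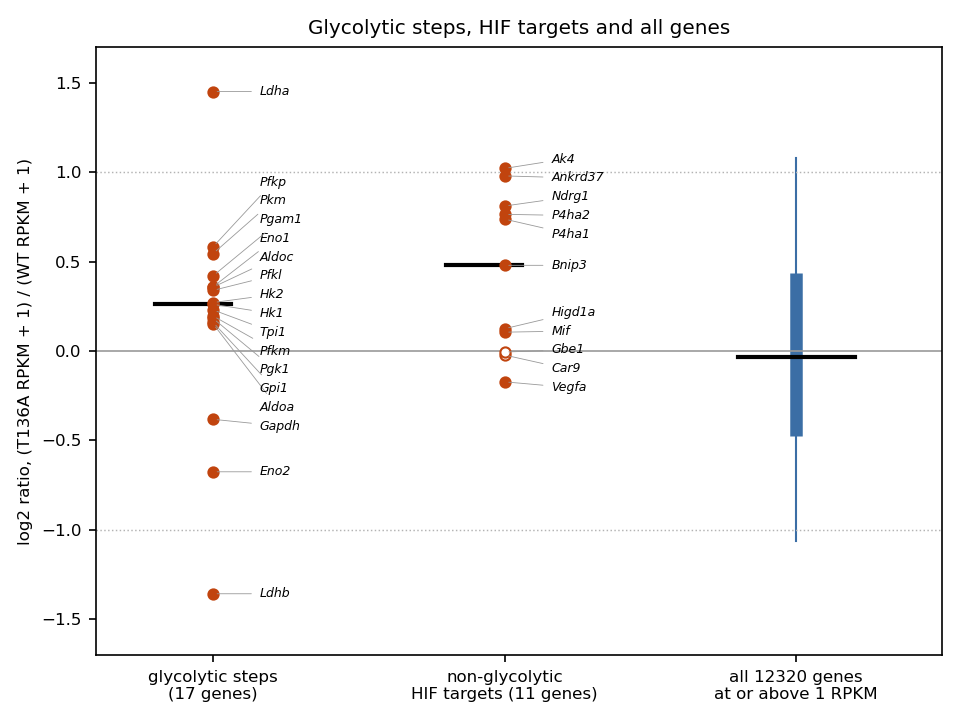
Log2 ratio, T136A over WT with 1 RPKM added to each, of 17 glycolytic step genes and 11 HIF targets outside glycolysis; open circles are under 1 RPKM, and black bars are medians over all genes shown (0.26 and 0.48). For all 12320 genes the thick bar spans percentiles 16 to 84 (-0.47 to 0.44) and the thin line percentiles 2.5 to 97.5 (-1.06 to 1.08).

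Promoters of 4 HIF-responsive genes that were at least 1.5-fold higher in T136A are shown next, to set their letters beside that of Ldha; they were picked after their values and matches were seen, as examples of different roles. As above, the windows come from RefSeq on GRCm38.p6 and capitals mark ACGTG or GCGTG on either strand. Slc16a3 lies at chr11:120948817-120949116 (plus strand), Egln3 at chr12:54203825-54204124 (minus strand), P4ha1 at chr10:59323046-59323345 (plus strand) and Ankrd37 at chr8:45999801-46000100 (minus strand).
Slc16a3: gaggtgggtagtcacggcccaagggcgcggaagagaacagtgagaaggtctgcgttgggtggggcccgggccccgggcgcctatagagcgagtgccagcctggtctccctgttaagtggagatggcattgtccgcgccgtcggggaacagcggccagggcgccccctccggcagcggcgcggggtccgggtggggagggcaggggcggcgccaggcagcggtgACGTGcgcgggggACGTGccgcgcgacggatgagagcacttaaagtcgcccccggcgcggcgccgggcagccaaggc
Egln3: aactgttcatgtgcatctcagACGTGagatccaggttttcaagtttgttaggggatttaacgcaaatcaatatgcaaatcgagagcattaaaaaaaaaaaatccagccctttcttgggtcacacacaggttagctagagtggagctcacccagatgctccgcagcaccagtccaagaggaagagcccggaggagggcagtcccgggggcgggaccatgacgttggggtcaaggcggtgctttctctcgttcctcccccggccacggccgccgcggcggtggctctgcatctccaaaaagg
P4ha1: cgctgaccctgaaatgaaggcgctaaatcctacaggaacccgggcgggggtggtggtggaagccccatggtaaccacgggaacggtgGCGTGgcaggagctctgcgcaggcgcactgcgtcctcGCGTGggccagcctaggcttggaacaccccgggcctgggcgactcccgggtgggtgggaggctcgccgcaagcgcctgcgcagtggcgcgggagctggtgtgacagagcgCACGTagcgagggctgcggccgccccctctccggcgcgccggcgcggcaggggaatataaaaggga
Ankrd37: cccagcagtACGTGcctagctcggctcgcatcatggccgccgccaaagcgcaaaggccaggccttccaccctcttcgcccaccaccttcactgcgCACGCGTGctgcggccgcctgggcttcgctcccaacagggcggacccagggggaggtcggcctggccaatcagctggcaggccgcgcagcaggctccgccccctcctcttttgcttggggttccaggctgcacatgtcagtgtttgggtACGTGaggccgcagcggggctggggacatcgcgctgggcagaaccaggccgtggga
The Slc16a3 window holds 2 matches to ACGTG, beginning 27 and 14 bases before the start site, and the Egln3 window holds 1, far upstream. Ankrd37 holds 2 matches to each form, and P4ha1 holds 1 to ACGTG and 2 to GCGTG. Of the other higher genes with windows, Slc2a1 and Egln1 hold 1 match to each form, and P4ha2 holds 2 to each. Ak4 has 4 windows, which hold at most 2 to each form.

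Promoter windows were found for 39 of the 42 genes, and 27 of these (69.2%) hold ACGTG in at least 1 window. The share was 30.0% over the 8904 genes at or above 1 RPKM with a window, and 21.8% over all 27025 genes of the table. Either form, ACGTG or GCGTG, was held by 34 of the 39 genes (87.2%), against 69.1% of the genes at or above 1 RPKM. CACGTG was held by 7 of the 39 genes (17.9%), against 12.3% of the genes at or above 1 RPKM. Counted per window, as some genes have several, 30 of 56 windows (53.6%) hold ACGTG. The share was 26.0% of the windows of genes at or above 1 RPKM and 19.6% of all 32851 windows. All 9 genes with a window that were at least 1.5-fold higher hold ACGTG, as do 2 of the 5 that were at least 1.5-fold lower and 15 of 22 in between. With GCGTG counted too, the groups were closer, at 9 of 9 higher, 4 of 5 lower and 19 of 22 in between. Many of these genes became known as HIF targets through such elements, and a match of 5 letters is not evidence of binding.

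**Figure D5:**
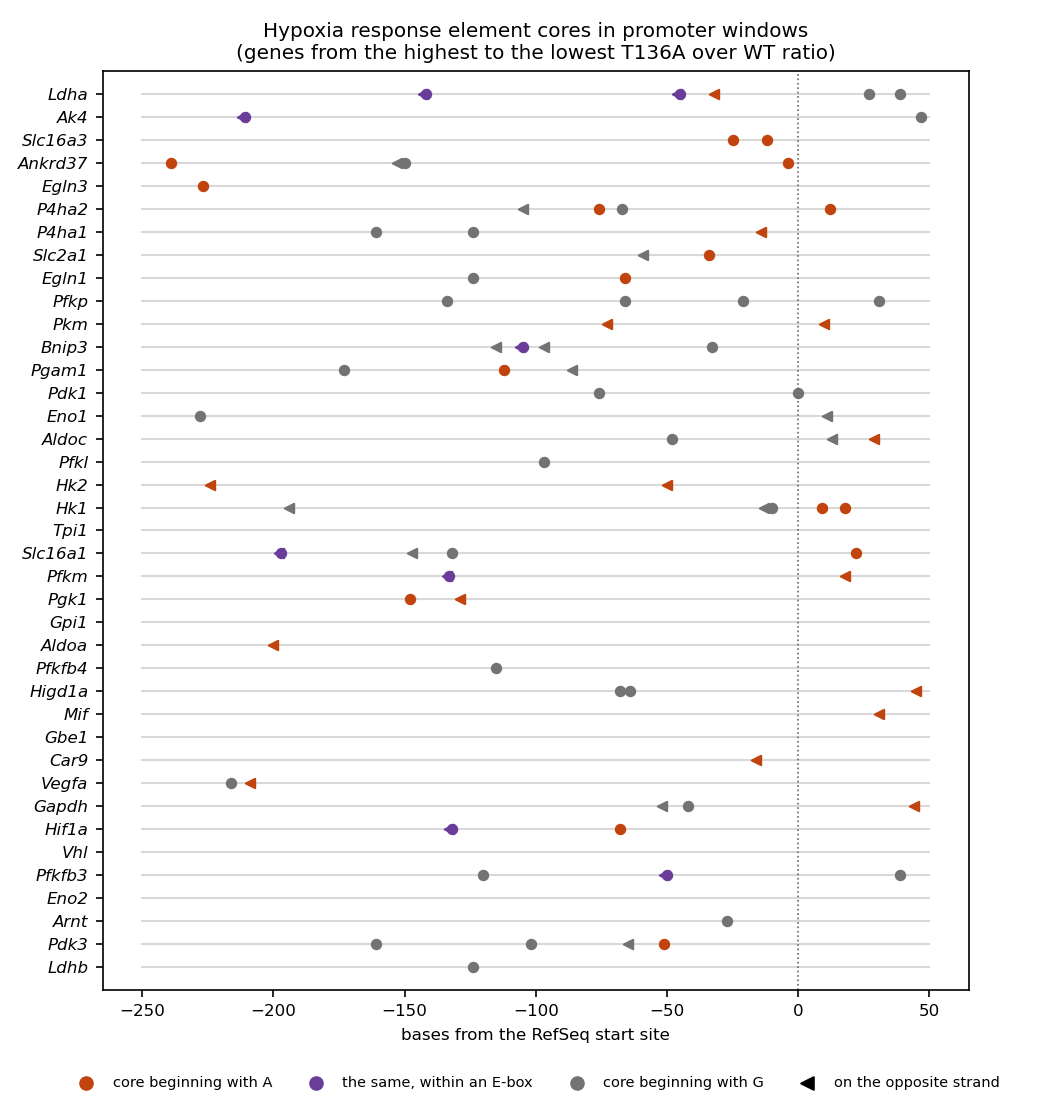
Centres of hypoxia response element cores (bases from the RefSeq start site) in 1 promoter window per gene, the window with the most matches where a gene has several; genes run from the highest log2 ratio (Ldha, 1.45) to the lowest (Ldhb, -1.36). Colours separate cores that begin with A, the same within an E-box, and cores that begin with G; triangles are on the opposite strand.

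Other genes around the pathway were read from 7 further lists. Of 36 further HIF targets at or above 1 RPKM, 10 were at least 1.5-fold higher (27.8%) and 6 lower (16.7%), against 10.4% and 11.3% of all genes, and the median log2 ratio was 0.20. Ndufa4l2, an HIF-induced subunit-like protein of the respiratory chain, was at 16.2 RPKM in T136A and 7.04 RPKM in WT, and the mitophagy receptor Bnip3l at 53.6 RPKM in T136A and 26.6 RPKM in WT. The lowest were the secreted hormone Stc2, at 4.02 RPKM in T136A and 34.4 RPKM in WT, and the lipoprotein receptor Vldlr, at 0.259 RPKM in T136A and 1.53 RPKM in WT. Without Stc2 and Ddit4, which the stress factor ATF4 also drives, the median was 0.21.

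Among 17 further HIF regulators, 3 were at least 1.5-fold higher and 3 lower, or 17.6% each, against 10.4% and 11.3% of all genes, and the median was -0.07. The chaperone Hsp90ab1, which stabilises HIF-1 alpha, was at 2629 RPKM in T136A and 1505 RPKM in WT, and Cited2, which competes with HIF for its coactivators, at 23.3 RPKM in T136A and 13.5 RPKM in WT. Lowest were Os9, at 6.68 RPKM in T136A and 12.5 RPKM in WT, and Elob, a subunit of the VHL ligase, at 463 RPKM in T136A and 774 RPKM in WT.

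Of 20 measured glycolysis isozymes and regulators outside the 42 genes, 3 were at least 1.5-fold higher (15%) and 5 lower (25%), against 10.4% and 11.3% of all genes, with a median of 0.04. The highest were the testis form Ldhc, at 2.51 RPKM in T136A and 0.723 RPKM in WT, and the phosphoglucomutase Pgm2, at 22.9 RPKM in T136A and 13.4 RPKM in WT. The insulin-responsive transporter Slc2a4, at 0.484 RPKM in T136A and 1.86 RPKM in WT, and Emb, a partner of lactate transporters, at 3.31 RPKM in T136A and 6.61 RPKM in WT, were lowest. Ldhc passed the minimum through T136A alone and Slc2a4 through WT alone. Where a mean of 1 RPKM was required, the counts of this list were 2 higher and 5 lower. Bsg, the main partner of lactate transporters, was at 294 RPKM in T136A and 206 RPKM in WT.

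Branches off glycolysis differed among themselves. In the pentose phosphate pathway 3 of 11 measured genes were at least 1.5-fold higher (27.3%, against 10.4% of all genes) and 0 lower, with a median of 0.21. Prps2, which makes the nucleotide precursor PRPP, was at 15.4 RPKM in T136A and 6.43 RPKM in WT, and Tktl1 at 1.32 RPKM in T136A and 0.0693 RPKM in WT. Tktl1 passed the minimum through T136A alone, with 60 reads in T136A and 3 in WT, and the count was 2 where a mean of 1 RPKM was required. Of 10 glycogen genes 9 were below 0, with a median of -0.25, and 0 were at least 1.5-fold higher and 2 lower (20%, against 11.3% of all genes): the synthase Gys1, at 12.2 RPKM in T136A and 20.5 RPKM in WT, and the phosphorylase Pygb, at 9.55 RPKM in T136A and 15.3 RPKM in WT. Among 17 genes of pyruvate use, 0 were at least 1.5-fold higher and 2 lower, with a median of -0.10; the share lower was 11.8%, near the 11.3% of all genes. These were Gpt2, which turns pyruvate into alanine, at 4.57 RPKM in T136A and 26.8 RPKM in WT, and Pck2, at 17.4 RPKM in T136A and 66.1 RPKM in WT. Of 6 genes of the NADH shuttles, 1 was at least 1.5-fold higher (16.7%, against 10.4% of all genes) and 0 lower, with a median of 0.29. The higher gene was Mdh2, the mitochondrial malate dehydrogenase, at 120 RPKM in T136A and 66.2 RPKM in WT.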

How the data were processed

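Messenger RNA of 2 libraries was measured by RNA-seq, 1 per genotype. Total RNA was isolated with Trizol and made into libraries with an Illumina TruSeq kit, per the labels' protocols, and sequenced on a GAIIx, per the series' design text. The deposited values, 1 per Ensembl gene and library, were taken as RPKM made by the authors. No label names this unit, which was settled from the values. Multiplied by union exon length in GENCODE M21 (GRCm38) and 1 constant per library, 90.0% of positive T136A values and 89.9% of positive WT values came out whole within 0.01. Per the submitters' processing notes, CASAVA 1.8 and mm9 were used, with no role stated. The aligner, the counting program and its rules for strand and for reads that match several genes: not given in the sources used here.

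Symbols matched 25696 of 25749 identifiers; of identifiers sharing a symbol, such as the 2 of Aldoa, the higher was used. The measure was log2 of RPKM plus 1, T136A over WT. Genes reaching 1 RPKM in either library entered counts, and calls were made at 2-fold and 1.5-fold. Intervals use reads recovered in both libraries, which 34 of the 39 measured genes had. Near-identical copies were found with blastn 2.17.0 and intervals with scipy 1.17.1; the steps were tested on simulated data. The 42 genes and all lists were chosen with earlier results of these data known. All 42 genes are named, and of each other list the 2 highest and 2 lowest measured genes past 1.5-fold. Bsg, Ddit4, Eno3, Epo, Egln2, the copies Gm7336, Gm5559 and Eno1b, and the cell type markers were named after their values were seen. Alternatives changed the added constant, the minimum level, the scaling and the genes entered.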

Additional observations from a re-analysis of the deposited data

How the results depend on the processing

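No paired analysis was possible because each genotype has 1 library, so no replicate could be left out either. Of the 11 alternatives run, none changed the direction of any of the 39 measured genes that it kept. Changing the added constant or the minimum level cannot change a direction. Leaving out chromosome 14, where none of these genes lies, cannot either. Only the 4 scalings and the summing of copies could have done so. Genes at least 2-fold higher, 2 as reported (3.13% of all genes), numbered 6 with 0.1 RPKM added (5.87% of all genes), 1 with 5 added (0.820%) and 5 after median of ratios scaling (3.68%). They numbered 6 with each library's RPKM rescaled to 1 fixed, larger sum (5.63%), which also makes the added 1 smaller relative to the values. They numbered 4 after quantile normalization (3.35%) and 1 with near-identical copies summed (3.125%). The log2 ratios of Ak4 (1.02), Slc16a3 (1.00), Ankrd37 (0.98) and Egln3 (0.97) lie close to that line. Genes at least 1.5-fold higher, 10 as reported (10.4% of all genes), numbered 5 with 5 RPKM added (4.25%), and those lower, 5 as reported (11.3%), 2 with 5 added (4.205%) and 3 with a minimum of 5 RPKM (11.9%). The Ldha share in T136A was 73.9% after quantile normalization. Beyond how the constant, minimum and scaling enter, the cause of these shifts was not tested. The median over the measured genes ran from 0.24 to 0.33, that of the glycolytic steps from 0.23 to 0.32 and that of the other HIF targets from 0.28 to 0.82. The difference between these ran from -0.54 to -0.06. Summing copies and leaving out Ddit4 and Stc2 were chosen after seeing the data. Depth limits Car9, Gbe1, Pfkfb4 and Ankrd37; Aldoa, Pfkm, Pgam1, Epas1 and Ndrg1 had no recovered reads.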

Other observations

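Of the 42 genes, 7 lie on mouse chromosome 6, and these include 5 of the 10 measured genes that were lower in T136A: Ldhb, Eno2, Vhl, Gapdh and Slc2a3. The 551 genes of that chromosome at or above 1 RPKM had a median log2 ratio of -0.05, and 12.9% of them were at least 1.5-fold lower, against 11.3% of all genes. Directions differed even between neighbours there. In GRCm38 (GENCODE M21), Eno2 (chromosome 6, 124760053 to 124769673) was at 1.95 RPKM in T136A and 3.72 RPKM in WT. Tpi1, the next of these 42 genes on the same strand (124810586 to 124814296), was at 273 RPKM in T136A and 232 RPKM in WT.

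Isozyme pairs differed in how far their balance lay apart between the libraries. The share of the first-named gene was higher in T136A by 45.2 percentage points for Ldha over Ldhb, 17.1 for Pdk1 over Pdk3, 13.7 for Slc16a3 over Slc16a1, 13.1 for Pfkfb4 over Pfkfb3, 11.6 for Slc2a1 over Slc2a3, 11.3 for Epas1 over Hif1a and 7.09 for Egln3 over Egln1. It was 1.63 for P4ha2 over P4ha1, 0.921 for Eno1 over Eno2 (Eno3 left out) and 0.430 for Aldoc over Aldoa. For Hk1 over Hk2 it was 0.0131 points. Oxygen, HIF protein and lactate were not measured here.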
